A study of Mus musculus with 32 samples.

Results

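The extracellular matrix genes of mouse liver were followed here: 43 genes that encode collagens, the proteins bound to them, the enzymes that crosslink or cut them and the inhibitors of those enzymes. They were chosen by name: any probe annotated with 1 of the 43 gene symbols belonged to the set, whatever its signal. The array named 34836 genes, and 21749 of them, 39 of the 43 among them, passed the filter on dim probes and entered the fit. The fibrillar collagens were Col1a1, Col1a2, Col3a1, Col5a1 and Col5a2. Basement membrane genes were Col4a1, Col4a2, Col15a1, Col18a1, Lama2 and Lamb1, and the beaded and fibril-associated collagens were Col6a1, Col6a2, Col6a3 and Col14a1. Lum, Dcn and Bgn encode proteoglycans, and Fbn1, Eln, Mfap4 and Efemp1 encode elastic fibre and microfibril proteins. Sparc, Fn1, Fstl1, Postn, Thbs1, Thbs2, Tnc and Ctgf formed the glycoproteins and matricellular proteins. The set was closed by the crosslinking enzymes Lox, Loxl1 and Loxl2, the inhibitors Timp1, Timp2 and Timp3, the metalloproteinases Mmp2, Mmp9, Mmp12, Mmp13, Mmp14 and Mmp23, and the cytoskeletal gene Vim.

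Livers came from 32 male C57/BL6 mice, 4 in each of 8 groups, and total RNA of each was hybridised to its own 1-colour array. Mice ate a standard diet or a methionine and choline deficient (MCD) diet for 3 weeks, and some of each received a dual agonist of the glucagon-like peptide 1 and glucagon receptors (GLP1R/GCGR) for 2 weeks, at 4.4 mg/kg/day given every 2 days. These 4 groups are called baseline below. The other 4 groups had the same diets and treatments, then removal of 70% of the liver (partial hepatectomy), and were sampled 2 weeks later while diet and treatment went on. The mice were not stated to carry any genetic change, and their age is not given in the sources used here.

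In a normal liver the matrix is sparse, and most of its collagen is made by hepatic stellate cells and portal fibroblasts. When the liver is injured, stellate cells turn into contractile cells that secrete fibrillar collagen, while TIMP proteins hold back the metalloproteinases that would remove it. The MCD diet is a widely used way of causing fat storage, inflammation and early fibrosis in mouse liver, and after partial hepatectomy the matrix is taken apart and laid down again as the remaining lobes grow.

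Promoter letters are shown for 4 genes: the inhibitor Timp1, the metalloproteinases Mmp12 and Mmp13, and Col3a1, the collagen with the most calls. Timp1 and Mmp12 are followed liver by liver in some comparisons, and Mmp13 mostly by the range of its levels. Mmp13 had no call in any comparison as reported, and only other settings of the processing called it. Each line gives the 250 bases before the annotated start on the plus strand, from RefSeq on GRCm38.p6, and capitals mark TGANTCA, the AP-1 motif, which reads the same on both strands. For Mmp12 the second of its 2 annotated starts is shown, and the window of the first held no match of the motif.
Timp1: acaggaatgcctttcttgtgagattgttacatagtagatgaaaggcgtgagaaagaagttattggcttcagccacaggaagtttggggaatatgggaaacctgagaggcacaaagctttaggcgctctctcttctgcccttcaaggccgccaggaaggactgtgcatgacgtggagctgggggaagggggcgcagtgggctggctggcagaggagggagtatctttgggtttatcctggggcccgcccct
Mmp12: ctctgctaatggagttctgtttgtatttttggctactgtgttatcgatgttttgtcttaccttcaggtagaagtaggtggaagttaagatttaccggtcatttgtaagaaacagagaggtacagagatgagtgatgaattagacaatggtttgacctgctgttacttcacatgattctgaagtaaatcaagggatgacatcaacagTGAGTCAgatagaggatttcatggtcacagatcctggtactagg
Mmp13: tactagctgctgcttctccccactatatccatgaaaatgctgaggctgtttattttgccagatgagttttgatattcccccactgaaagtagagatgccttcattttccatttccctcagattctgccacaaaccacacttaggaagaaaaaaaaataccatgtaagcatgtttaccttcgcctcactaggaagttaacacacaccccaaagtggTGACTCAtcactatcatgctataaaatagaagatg
Col3a1: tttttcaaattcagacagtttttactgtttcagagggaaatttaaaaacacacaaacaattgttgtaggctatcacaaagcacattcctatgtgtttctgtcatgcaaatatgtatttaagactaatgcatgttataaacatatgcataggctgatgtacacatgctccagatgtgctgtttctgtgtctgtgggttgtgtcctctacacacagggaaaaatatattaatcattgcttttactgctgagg
The windows lie at chrX:20869916-20870165 for Timp1, chr9:7347124-7347373 for Mmp12, chr9:7272264-7272513 for Mmp13 and chr1:45311288-45311537 for Col3a1. In Mmp12 the motif ran from base -44 to base -38 before the start, and in Mmp13 from base -35 to base -29. Over windows of 300 bases, which add the 50 bases after the start, the motif was found in 4 of the 28 members with a window: Mmp12, Mmp13, Col6a1 and Efemp1. That was 4 of 34 member windows, or 11.8%, against 2565 of all 32851 windows, or 7.81%. These are matches of letters in the window, not measured binding.

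Levels below are log2 of the processed signal minus that array's 75th percentile, so a level of 0 is a probe as bright as the 75th percentile of its own array. A difference of 1 between groups is a 2-fold difference in signal. Adjusted p-values come from limma fitted to all 21749 genes with Benjamini-Hochberg adjustment, n = 4 livers per group, and "rose" or "fell" means an adjusted p under 0.05. Each array had 62976 spots, and between 44.4% and 69.7% of the spots that were not controls were well above background, with a median of 53.8%. No member was saturated on any array.

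Some features of the arrays touch the results. The arrays filled 4 slides with 2 groups each, and each group held 1 row of its slide. At baseline both diet comparisons lay within a slide, after hepatectomy both agonist comparisons did, and all others crossed slides. Baseline and hepatectomy arrays were on different slides, scanners and scan sessions, so hepatectomy cannot be told apart from these, nor from the longer diet and treatment. Moreover, the deposited table of processed values did not match the arrays' labels throughout: 16 of its 32 columns correlated best with arrays of another group (Spearman 0.917 to 0.990 over all columns, against 0.880 to 0.937 with the array of the same label). Those were the columns of the MCD diet without agonist and of the standard diet with agonist, exchanged for each other at baseline and again after hepatectomy. Which of them carries the true label was not settled. The arrays are described here by their own labels; under the exchange, "diet without agonist" and "agonist on the standard diet" would trade places, as would "diet under the agonist" and "agonist on the MCD diet". Hepatectomy on the MCD diet without agonist and hepatectomy on the standard diet with agonist would trade places as well, while the diet by agonist interaction would stay as it is.

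In addition, 2 livers stood apart from the rest of their groups: liver 1 of the standard diet and liver 4 of the standard diet with agonist, both after hepatectomy. Their median member, centred on its mean over all livers, lay at 1.19 and 1.02, while the other livers after hepatectomy lay between -0.21 and 0.66. The summed level of recruited macrophage markers was 119 and 77 in them, against 11.1 to 20 in the other livers of those 2 groups. Resident macrophage markers summed to 399 and 428, against 86.2 to 191. Cholangiocyte markers, a list that shares Spp1 with the recruited macrophages, summed to 51.8 and 30.4, against 3.29 to 7.22. Results after hepatectomy on the standard diet are therefore given with and without both, and the livers were picked after their values were seen. Hepatocyte markers (Alb, Apoa1, Ttr, Cps1, Tat and Hnf4a) were well above background on every array.

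**Figure D1:**
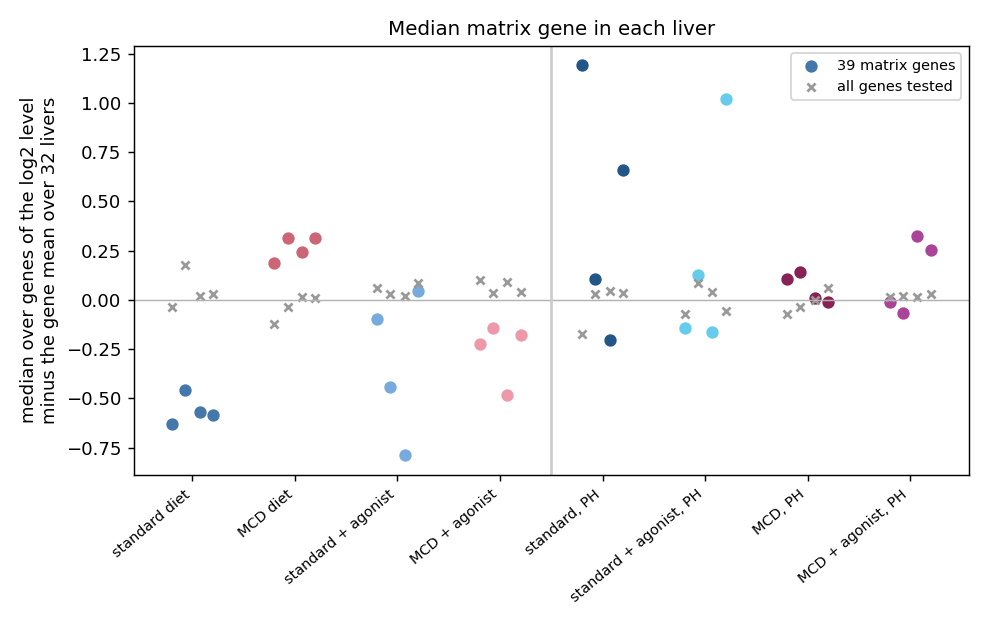
Median of the 39 tested matrix genes in each liver (each gene centred on its mean over all 32 livers, log2), by group, with the median of all genes for comparison. The 2 livers that stand apart lie at 1.19 and 1.02, above every other liver after hepatectomy.

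On the MCD diet without the agonist, every class of matrix genes had at least 1 member that rose, though in several classes the calls were not stable. Col1a2, Lamb1, Loxl2 and Vim were the only calls of the fibrillar, basement membrane, crosslinking and cytoskeletal classes. Each was lost when at least 1 array was left out, as were both elastic fibre calls, Fbn1 and Efemp1. Of the 39 tested members, 18 rose and none fell, against 10.7% of all genes that rose and 15.3% that fell. The members' median change was 0.85 and that of all genes was -0.13. Scaling to the array median in place of the 75th percentile moved the median of all genes to 0.23. The members' median lay 0.98 above that of all genes, a gap that rescaling whole arrays leaves as it is by construction, and 0.64 above it with normexp, another background correction. Over all genes the calls were 2322 higher and 3337 lower, which became 4425 and 1229 under median scaling and 2811 and 2528 under quantile normalization. Fitted on the 8 arrays of this slide alone, 20 members rose and none fell. Col1a1, Col3a1, Col4a1 and Mmp13 were gained there, and Loxl2 and Efemp1 were lost. The gained members also rose under median scaling. With normexp 9 rose and 2 fell, and 11 of the 18 calls were lost: Timp1, Timp2, Mmp12, Col1a2, Fbn1, Fstl1, Loxl2, Postn, Thbs1, Thbs2 and Lamb1.

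Timp1, the inhibitor of metalloproteinases that stellate cells and macrophages release in injury, stood at -5.40, -3.91, -4.33 and -3.73 in the 4 livers on the standard diet. With the MCD diet it stood at -1.31, -0.86, -0.85 and 0.04. Every MCD liver was above every standard liver, the change was 3.60 ± 0.89 (SE), or 12.1-fold, and the adjusted p was 0.00389. With normexp it was at 1.40 (adjusted p = 0.12). Timp2 rose as well, by 0.82 ± 0.30 (adjusted p = 0.0441), and Timp3 did not pass.

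Mmp12, the macrophage metalloelastase, stood at -7.16, -4.69, -5.60 and -6.29 on the standard diet, where 1 of 4 arrays was well above background, and at -1.84, -3.01, -3.03 and -0.97 on the MCD diet, where all 4 were. The change was 3.72 ± 0.86 (adjusted p = 0.00228), and the groups did not overlap. Its size rests on signals near background in 3 of the 4 standard-diet arrays, and with normexp it was 0.80 (adjusted p = 0.148). Mmp13, the interstitial collagenase of mice, stood between -4.96 and -3.82 on the standard diet and between -2.97 and -1.43 on the MCD diet. Its groups did not overlap, but the change of 2.11 ± 0.86 missed the threshold (adjusted p = 0.0681), and only 1 standard-diet array was well above background. Mmp2, the gelatinase of stellate cells, was at 0.77 ± 0.33 (adjusted p = 0.0855), and Mmp9, Mmp14 and Mmp23 did not pass either.

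Among the collagens, Col6a3 of the beaded filaments rose by 1.57 ± 0.41 (adjusted p = 0.00594) and Col1a2, the second chain of type I collagen, by 1.19 ± 0.41 (adjusted p = 0.0322). Col1a1, the first chain, stood at -1.44, -0.29, -0.12 and -1.12 on the standard diet and at 0.65, 0.88, 1.17 and 0.89 on the MCD diet. Col3a1, the chain of type III collagen, stood at 1.29, 1.73, 1.61 and 1.76 against 2.32, 2.57, 2.71 and 2.66. Neither pair of groups overlapped, yet both changes lay just outside the threshold: 1.64 ± 0.64 for Col1a1 (adjusted p = 0.0571) and 0.97 ± 0.38 for Col3a1 (adjusted p = 0.0605). Both passed on the arrays of this slide alone and under median scaling. Col4a1 of the basement membrane was at 0.85 ± 0.36 (adjusted p = 0.0767). Lamb1, a laminin chain, rose by 0.84 ± 0.26 (adjusted p = 0.0179).

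The proteins that sit on or between the fibres gave the most calls. Sparc, a collagen-binding protein, stood between 4.20 and 4.55 on the standard diet and between 5.59 and 5.82 on the MCD diet, a change of 1.34 ± 0.22 (adjusted p = 9.15e-05). That was the smallest adjusted p of any member here, and its second probe changed by 0.55. Ctgf, a matricellular growth factor partner and target of TGF-beta and YAP, stood between 1.31 and 1.62 against 3.16 to 3.44, a change of 1.90 ± 0.40 (adjusted p = 0.00108). Thbs1, which activates latent TGF-beta, stood at -4.76, -3.37, -3.81 and -3.06 against -1.85, -1.98, -2.26 and -2.10, and rose by 1.70 ± 0.63 (adjusted p = 0.0441). Thbs2, Fstl1 and Postn also rose, by 1.19, 1.15 and 0.97, so that 6 of the 7 tested members of this class passed. Fibronectin (Fn1), which hepatocytes themselves secrete, was at 7.47 to 7.83 and at 7.50 to 8.36, and the groups overlapped (0.13 ± 0.24, adjusted p = 0.715).

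Of the proteoglycans, which bind collagen and space its fibrils, Lum rose by 1.64 ± 0.31 (adjusted p = 0.000348) and Dcn by 1.64 ± 0.32 (adjusted p = 0.000543). Bgn did not pass. Among the elastic fibre genes Fbn1 (fibrillin) rose by 1.15 and Efemp1 (a fibulin) by 0.97, and Eln and Mfap4 did not pass. Loxl2, which crosslinks collagen, rose by 1.18 ± 0.44 (adjusted p = 0.0497). Its groups overlapped, and its other 2 probes changed by 0.48 and -0.02. Loxl1 was at 0.08 ± 0.45 (adjusted p = 0.917). Vim, an intermediate filament of mesenchymal cells, rose by 1.24.

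Leaving out each of the 8 arrays in turn, 7 of the 18 calls held every time: Timp1, Mmp12, Col6a3, Sparc, Ctgf, Lum and Dcn. The other 11 were each lost without at least 1 array. Of the 7, Timp1 and Mmp12 were lost with normexp. Markers of other cells moved with this comparison. Recruited macrophage markers rose in 4 of 7 tested and none fell, and their summed level ran from 5.64 to 8.16 on the standard diet and from 17.7 to 40.8 on the MCD diet. Of resident macrophage markers 3 of 5 rose (38.7 to 68.5 against 92.1 to 256), and of hepatic stellate cell markers 4 of 11 rose (110 to 120 against 136 to 144). The summed level of hepatocyte markers was lower, at 2310 to 3340 against 2040 to 2200. That of sinusoidal endothelial markers was higher, at 54.5 to 71.8 against 72.1 to 93.3. Adgre1 and Ly6c2 did not pass the filter. The part of these cells in the matrix result was not tested, and in whole liver more cells of a type cannot be told apart from more RNA per cell.

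**Figure D2:**
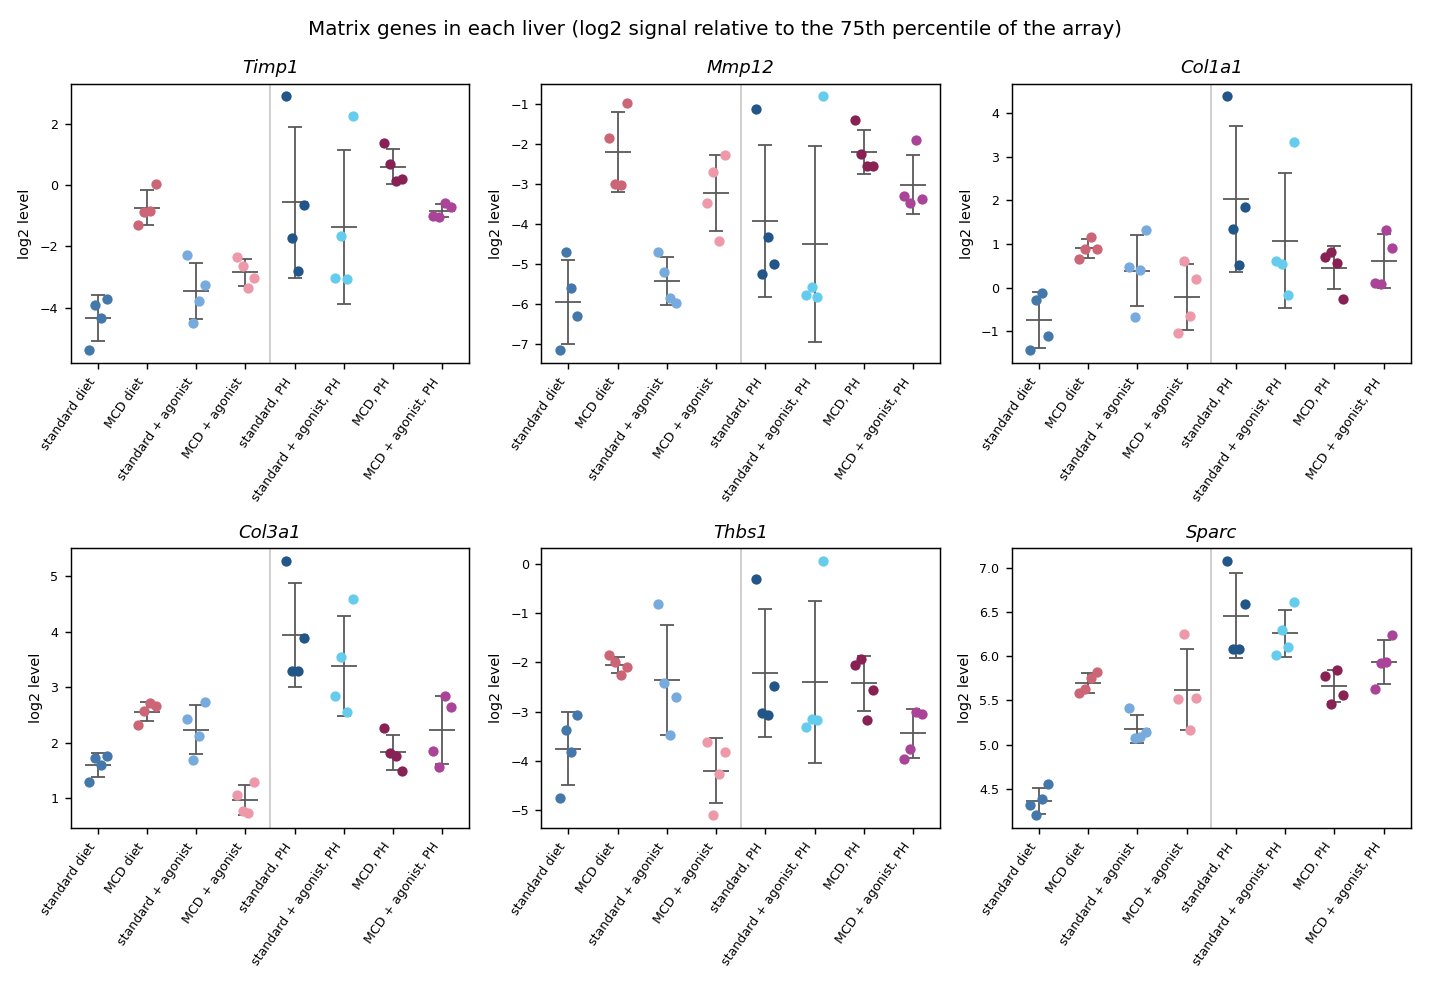
Levels of Timp1, Mmp12, Col1a1, Col3a1, Thbs1 and Sparc in each liver (points, log2 of the processed signal minus the array's 75th percentile) in the 8 groups, with mean and SD as bars; PH marks livers 2 weeks after partial hepatectomy. Timp1 stands between -5.40 and -3.73 on the standard diet and between -1.31 and 0.04 on the MCD diet, and 2 livers after hepatectomy lie above the rest of their groups.

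With the agonist on both sides, the MCD diet gave another picture: none of the 39 members rose and 2 fell, Col3a1 and Thbs1. Over all genes 8.09% rose and 7.07% fell. The members' median change was -0.05 and that of all genes was 0.03. All-gene calls were 1759 higher and 1537 lower, and 1018 and 1867 under median scaling. On this slide alone 1 member, Mmp12, rose and 1, Col3a1, fell, and with normexp only Col3a1 fell.

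Col3a1 stood at 2.42, 1.70, 2.12 and 2.73 on the standard diet with agonist and at 1.07, 0.78, 0.74 and 1.30 on the MCD diet with agonist, without overlap. It fell by 1.27 on the log2 scale (SE 0.38, adjusted p = 0.0223), and the call held in 4 of the 8 fits that left out 1 array. Thbs1 stood at -0.81, -2.42, -3.47 and -2.71 against -3.62, -5.10, -4.27 and -3.81, and only 1 of the 4 latter arrays was well above background. It fell by 1.85 (SE 0.63, adjusted p = 0.0436), and the call held in 2 of those 8 fits. Timp1 was at -2.28 to -4.50 and at -2.35 to -3.37, overlapping groups (0.61 ± 0.89, adjusted p = 0.708). Mmp12 remained without overlap, at -5.98 to -4.69 against -4.42 to -2.27, but its change of 2.21 ± 0.86 missed the threshold (adjusted p = 0.0814). Ctgf was at 0.95 ± 0.40 (adjusted p = 0.112) and Sparc at 0.44 ± 0.22 (adjusted p = 0.194). Of resident macrophage markers 3 of 5 fell here.

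The difference between the diet changes with and without the agonist was tested directly as the interaction at baseline, in which slide effects cancel. It passed in 4 members: Col3a1, Thbs1 and Dcn were more negative under the agonist and Mmp14 more positive. Over all genes 6.16% were positive calls and 4.93% negative. The members' median was -0.94 and that of all genes 0.18, with 33 of 39 members negative. Scaling to the array median moved the median of all genes to -0.35 and changed the all-gene calls from 1339 positive and 1072 negative to 262 and 2459. Quantile normalization gave 987 and 1281. The members' median lay 1.11 below that of all genes, and 0.65 below it with normexp.

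The interaction was -2.24 ± 0.54 for Col3a1 (adjusted p = 0.00901), -3.55 ± 0.88 for Thbs1 (adjusted p = 0.011) and -1.84 ± 0.47 for Dcn (adjusted p = 0.0129). Dcn lacked 1 array of the standard diet with agonist, an outlier spot, so that group holds 3 livers for it. For Mmp14, the membrane-bound activator of Mmp2, the interaction was 1.34 ± 0.43 (adjusted p = 0.0426). Mmp14 lost its call under median scaling and with normexp, and Thbs1 with normexp (-0.64, adjusted p = 0.394), while Col3a1, Thbs1 and Dcn kept theirs when each of the 16 arrays was left out. Fitted on the 16 baseline arrays alone, 7 members passed, all negative, and Dcn and Mmp14 were not among them. Several of the genes most raised by the diet missed the threshold for the interaction: Timp1 was at -2.98 ± 1.26 (adjusted p = 0.119), Col1a1 at -2.24 ± 0.90 (adjusted p = 0.103), Mmp13 at -2.58 ± 1.21 (adjusted p = 0.166) and Sparc at -0.90 ± 0.31 (adjusted p = 0.0612). With all arrays fitted, a difference between the diet changes was not shown for these genes, and other settings called some of them. Timp1 and Col1a1 passed on the 16 baseline arrays alone, Col1a1 and Sparc under median scaling, and Sparc with normexp. Resident macrophage markers were negative in 4 of 5, recruited in 1 of 7 and sinusoidal endothelial in 3 of 8; their part in the interaction was not tested.

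**Figure D3:**
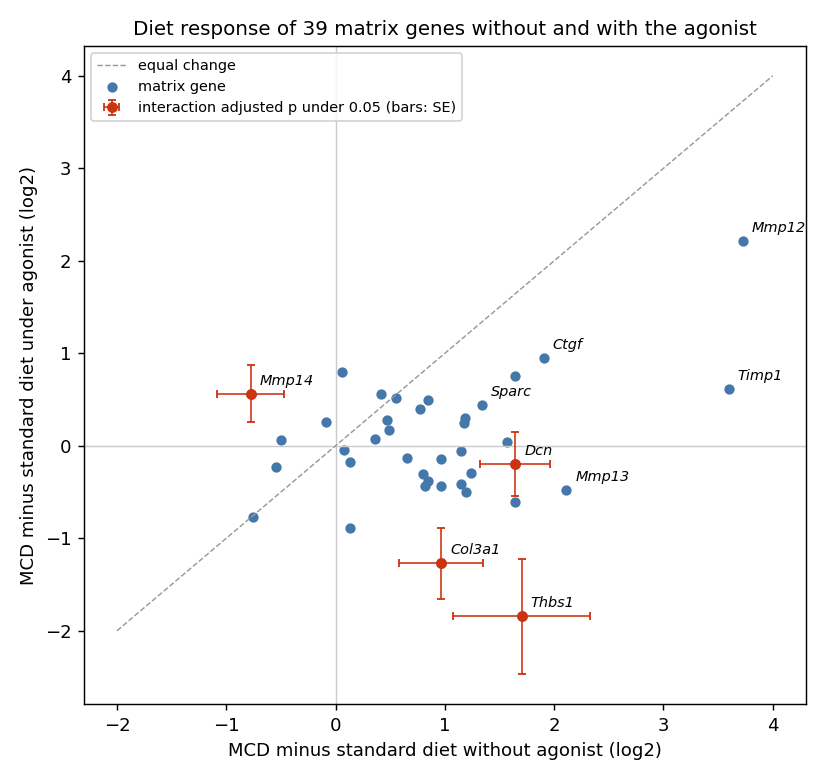
Change with the MCD diet at baseline (log2) without the agonist (x axis) and under the agonist (y axis) for the 39 tested members; red marks the 4 that passed the interaction test, with SE bars, and the dashed line is equal change. Thbs1 goes from 1.70 to -1.85 and Col3a1 from 0.97 to -1.27.

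The same arrays can be read as agonist effects. These comparisons cross slides, and they share their groups with the diet comparisons above. At baseline on the MCD diet the agonist went with 1 higher member and 5 lower ones of 39, against 8.90% of all genes that rose and 4.38% that fell. The members' median was -0.59 and that of all genes 0.14, which median scaling moved to -0.20; the members' median lay 0.74 below that of all genes, and 0.56 below it with normexp. All-gene calls were 1935 higher and 952 lower, 448 and 2184 under median scaling, and 1194 and 1241 under quantile normalization.

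Col3a1 fell by 1.59 on the log2 scale, or 3.01-fold (SE 0.38, adjusted p = 0.00756), and its levels of 0.74 to 1.30 lay below those of 2.32 to 2.71 without the agonist. Dcn fell by 1.22 (SE 0.32, adjusted p = 0.0133), from 7.83, 7.48, 8.51 and 7.43 to 6.58, 6.87, 7.18 and 5.73. Thbs1 fell by 2.15 (SE 0.63, adjusted p = 0.0224), Efemp1 by 1.04 (SE 0.35, adjusted p = 0.0467) and Timp2 by 0.92 (SE 0.30, adjusted p = 0.0403), the last with overlapping groups. Mmp14 rose by 0.97 ± 0.31 (adjusted p = 0.0333), also with overlap, and lost the call under median scaling. Without any single one of the 8 arrays Col3a1 still fell. Of those 8 fits the call of Dcn held in 6, those of Thbs1 and Mmp14 in 5, that of Timp2 in 2 and that of Efemp1 in 1. Efemp1 also lost its call under quantile normalization. Dcn and Timp2 lost their calls with normexp (adjusted p = 0.0533 and 0.261) and with only the arrays compared (adjusted p = 0.0566 and 0.115). Thbs1 lost its call with normexp, and Mmp14 with only the arrays compared. Other members differed in every liver but did not pass: Timp1 at -2.10 ± 0.89 (adjusted p = 0.11), Mmp13 at -2.32 ± 0.86 (adjusted p = 0.0683) and Mmp2 at -0.86 ± 0.33 (adjusted p = 0.0826). Timp1 and Mmp13 did fall with only the arrays compared, and Mmp13 and Mmp2 under median scaling. Resident macrophage markers fell in 4 of 5, with a summed level of 48.5 to 96.0 against 92.1 to 256, and stellate cell markers fell in 2 of 11. Recruited macrophage markers ran from 10.7 to 16.3 against 17.7 to 40.8, and none passed.

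On the standard diet at baseline 1 member, Sparc, rose with the agonist and none fell, against 3.30% and 3.21% of all genes. Sparc stood between 5.07 and 5.41 with the agonist and between 4.20 and 4.55 without, a change of 0.82 ± 0.22 (adjusted p = 0.0264). Its second probe changed by 0.10, and the call was lost without 4 of the 8 arrays in turn and on the 8 arrays alone. Fn1 did not overlap, at 7.92 to 8.77 against 7.47 to 7.83, and was at 0.70 ± 0.24 (adjusted p = 0.0683). It rose with normexp, under median scaling and under quantile normalization, and Sparc lost its call under the last of these. Resident macrophage markers rose in 4 of 5, with a summed level of 108 to 171 against 38.7 to 68.5. All-gene calls were 718 higher and 699 lower, and 970 and 300 under median scaling.

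Hepatectomy on the standard diet came with the second large set of matrix calls. Of 39 members 17 rose and none fell, against 6.31% of all genes that rose and 7.44% that fell. The members' median was 0.93, that of all genes -0.07. Median scaling moved the latter to 0.09. The members' median lay 1.00 above it, and 0.72 above it with normexp. All-gene calls were 1372 higher and 1618 lower, 1727 and 826 under median scaling, and 1839 and 1231 under quantile normalization. Without liver 1, which stands apart, and liver 4 of the agonist group, 10 members rose and none fell, against 3.92% and 3.87% of all genes: Col1a1, Col1a2, Col3a1, Sparc, Lum, Fbn1, Fstl1, Loxl2, Timp1 and Vim. On the 8 arrays of these 2 groups alone 4 rose: Col1a2, Col3a1, Sparc and Lum. Col1a1, Timp1 and Loxl2 were among the calls lost there. With normexp 11 rose, without Timp1, Timp2, Col4a2, Col6a3, Fbn1, Mmp2 and Lama2. This comparison shares its standard-diet livers with the diet comparison.

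All chains of types I and III collagen rose. Col1a1 stood at 4.39, 1.35, 0.52 and 1.85 after hepatectomy against -1.44 to -0.12 before, and the change was 2.77 ± 0.64 (adjusted p = 0.00508), or 1.98 ± 0.44 without both livers (adjusted p = 0.00772). Col3a1 stood at 5.27, 3.29, 3.30 and 3.89 against 1.29 to 1.76, a change of 2.34 ± 0.38 (adjusted p = 0.000335), or 1.90 ± 0.30 without them. Col1a2 stood at 5.79, 3.69, 3.28 and 4.17 against 1.79 to 2.36 and rose by 2.25 ± 0.41 (adjusted p = 0.000883). In all 3 genes the groups did not overlap and liver 1 was the highest. Col5a1, a minor fibrillar chain, did not pass.

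Sparc stood at 7.08, 6.08, 6.08 and 6.59 and rose by 2.10 ± 0.22 (adjusted p = 5.92e-06), its second probe by 0.65. Loxl2 rose by 2.02 ± 0.44 (adjusted p = 0.00361) with its other probes at 1.40 and 0.43. Lum rose by 1.37, Fstl1 by 1.61, Vim by 1.75 and Fbn1 by 1.67. The basement membrane chains Col4a1 and Col4a2 rose by 1.29 ± 0.36 (adjusted p = 0.0162) and 1.00 ± 0.29 (adjusted p = 0.0211), and neither passed without both livers (Col4a1 at 0.90 ± 0.29, adjusted p = 0.0538). Mmp2 (1.05), Lama2 (0.92), Timp2 (0.93), Col6a2 (1.14) and Col6a3 (1.23) rose with all livers and not without the 2 livers, and the last 3 overlapped between groups.

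Timp1 shows how far 1 liver carried the mean: it stood at 2.91, -1.72, -2.80 and -0.63, against -5.40 to -3.73 before. The change was 3.78 ± 0.89 (adjusted p = 0.00583) with all livers and 2.63 ± 0.50 (adjusted p = 0.00255) without both. Mmp12 stood at -1.13, -5.25, -4.32 and -5.01, of which only 1 array was well above background, and its groups overlapped (2.01 ± 0.86, adjusted p = 0.115). Mmp13 was at -1.09 in liver 1 and at -5.92 to -4.55 in the others. Ctgf, which rose with the diet, was at 3.26 in liver 1 and at 0.74, 0.70 and 1.70 in the others, and did not pass (0.19 ± 0.40, adjusted p = 0.793). Markers of resident macrophages rose in 5 of 5, of recruited macrophages in 5 of 7 and of portal fibroblasts in 2 of 5; the portal list shares Mfap4 and Eln with the matrix set. Neutrophil markers rose in 2 of 7. Of stellate cell markers 1 of 11 fell and none rose, with a summed level of 75.7 to 91 against 110 to 120 before, and 1 of 6 hepatocyte markers fell. Their part in the result was not tested.

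**Figure D4:**
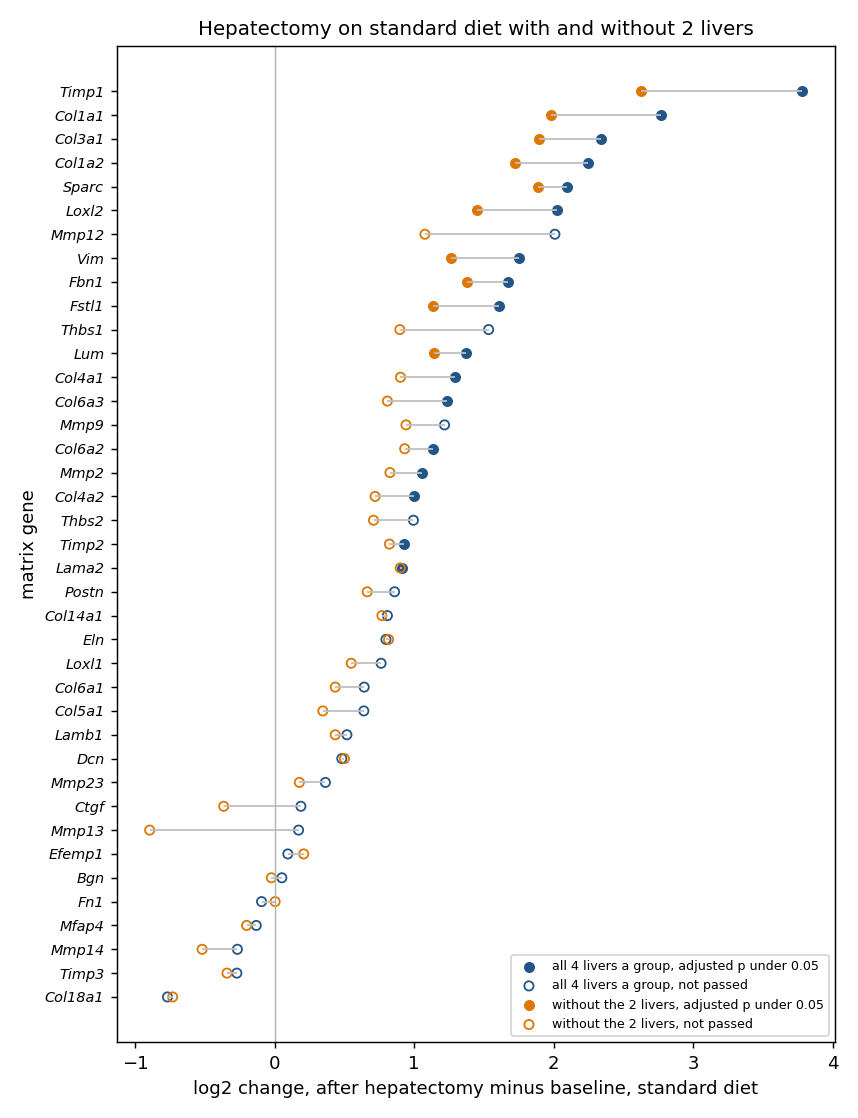
Change after hepatectomy on the standard diet (log2) for the tested members with all livers and without the 2 livers that stand apart. Timp1 moves from 3.78 to 2.63 and Col1a1 from 2.77 to 1.98, and 10 of the 17 calls hold.

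On the standard diet with agonist, hepatectomy went with 5 higher members and none lower, against 2.98% of all genes that rose and 4.41% that fell. They were Sparc (1.08 ± 0.22, adjusted p = 0.0048), Col6a2 (1.62 ± 0.36, adjusted p = 0.00887), Mmp2 (1.36 ± 0.33, adjusted p = 0.0145), Loxl2 (1.71 ± 0.44, adjusted p = 0.0195) and Eln (1.16 ± 0.31, adjusted p = 0.0234). The second probe of Col6a2 changed by 0.80 and that of Sparc by 0.68. With normexp Eln, Loxl2 and Mmp2 lost their calls. Without both livers that stand apart 3 rose, Col6a2, Sparc and Loxl2, against 1.74% and 2.56% of all genes. Col1a1 stood at 0.60, 0.55, -0.16 and 3.34 after hepatectomy and between -0.67 and 1.33 before. It was at 0.69 ± 0.64 with all livers (adjusted p = 0.532) and at -0.06 without the 2 livers. The all-gene calls were 648 higher and 960 lower.

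After hepatectomy on the MCD diet without agonist 2 of 39 members rose and 1 fell, shares near the 6.47% and 2.99% of all genes that did, and the median was -0.26 against -0.02. Timp3, the inhibitor bound to the matrix, stood at 1.24, 1.28, 1.64 and 1.14 against 2.01 to 2.61 before, and fell by 0.89 (SE 0.22, adjusted p = 0.0109). Mmp9, a gelatinase of neutrophils and macrophages, stood at -3.57, -3.50, -3.11 and -3.22, above all livers before hepatectomy at -6.53 to -3.97. It rose by 1.61 ± 0.45 (adjusted p = 0.0224), and 3 of the 4 arrays before hepatectomy were well above background. Mmp14 rose by 1.08 ± 0.31 (adjusted p = 0.0241). Both lost their calls with normexp. Neutrophil markers rose in 4 of 7, with a summed level of 133 to 316 against 74.2 to 126; their part was not tested. Col1a1 was at -0.44 ± 0.64 (adjusted p = 0.727) and Timp1 at 1.35 ± 0.89 (adjusted p = 0.366), the latter without overlap. With only the arrays compared, 3 members rose and 5 fell. Timp1, Col4a1, Col6a3, Mmp13, Thbs2 and Ctgf were gained there, and Mmp9 was lost. All-gene calls were 1408 higher and 650 lower, and 896 and 812 under median scaling.

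After hepatectomy on the MCD diet with agonist 5 members rose and none fell, against 3.73% and 6.31% of all genes. The type IV collagen chains of the basement membrane were both among them: Col4a1 stood at 1.77, 2.50, 2.65 and 2.61 against 0.06 to 0.97 and rose by 1.65 ± 0.36 (adjusted p = 0.00487). Col4a2 rose by 1.09 ± 0.29 (adjusted p = 0.0162), Fbn1 by 1.61 ± 0.42 (adjusted p = 0.0147), Eln by 1.17 ± 0.31 (adjusted p = 0.0173) and Col3a1 by 1.26 ± 0.38 (adjusted p = 0.034). None of the 5 overlapped between groups, though 2 of the 4 arrays before hepatectomy were below the background limit for Fbn1 and for Eln. Only the call of Col4a1 held without each of the 8 arrays in turn. With normexp 2 members rose, Col4a1 and Col4a2, and 5 fell, Fn1, Timp3, Mmp9, Thbs2 and Mfap4; Col3a1 was also lost with only the arrays compared. Resident macrophage markers rose in 2 of 5. All-gene calls were 812 higher and 1373 lower, 1080 and 629 under median scaling, and 1173 and 972 under quantile normalization.

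**Figure D5:**
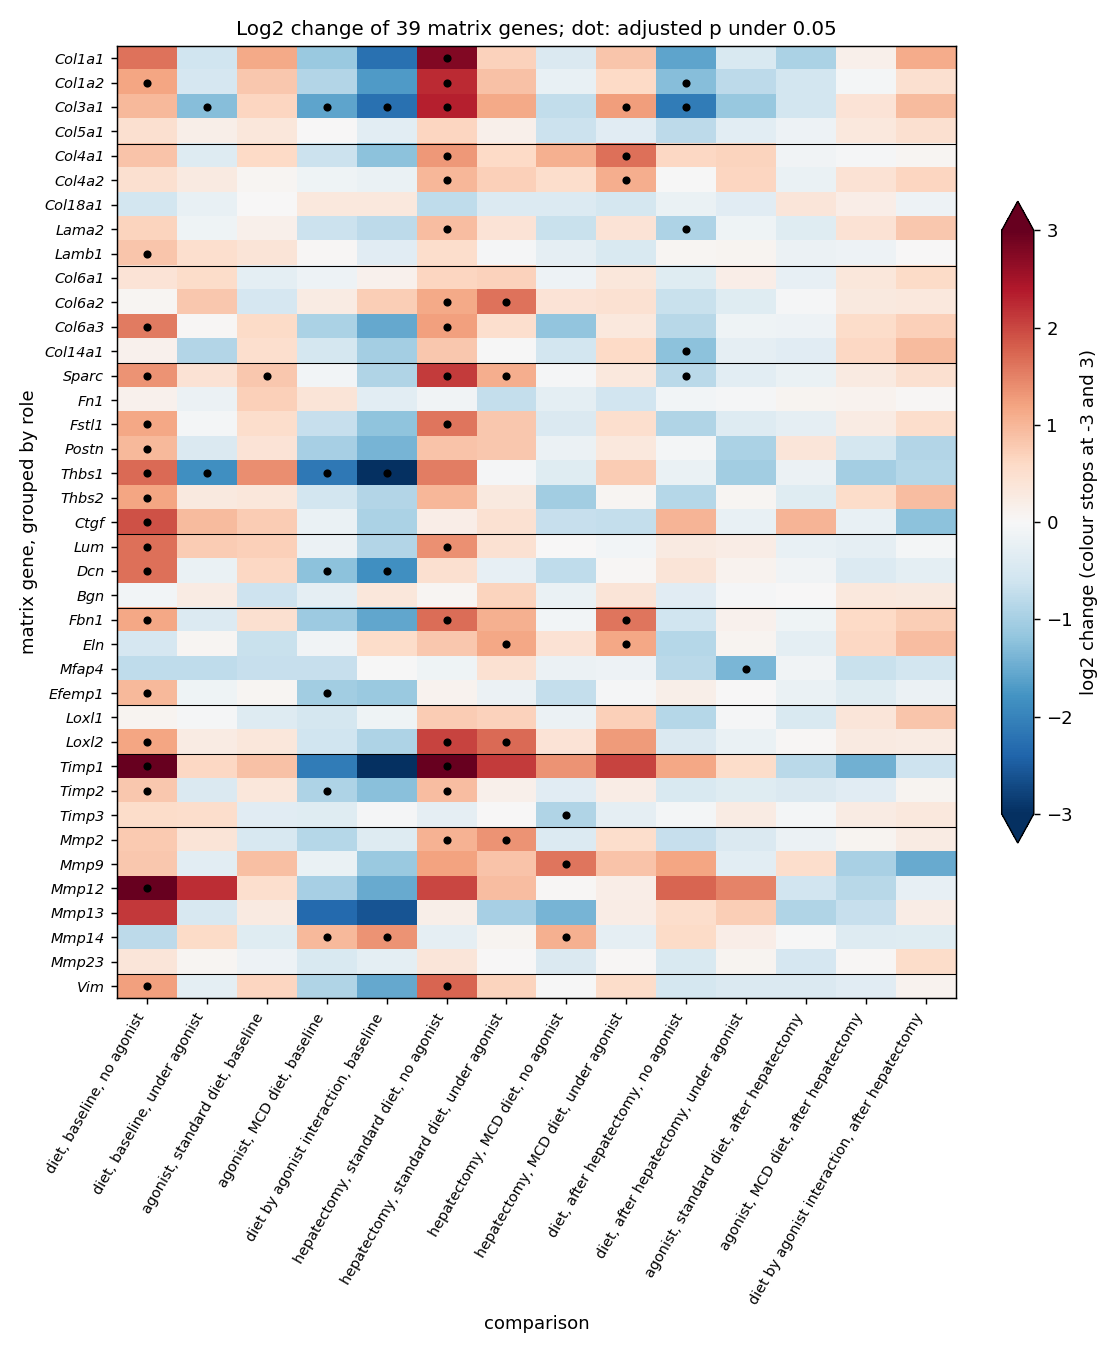
Change (log2) of the 39 tested members, in rows by class, in the 14 comparisons, in columns; dots mark an adjusted p under 0.05. The columns of the diet at baseline without agonist (18 calls) and of hepatectomy on the standard diet (17 calls) hold the most dots.

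Among livers after hepatectomy the MCD diet without agonist went with 5 lower members and none higher, against 5.98% of all genes that fell and 5.52% that rose. Col3a1 fell by 2.11 (SE 0.38, adjusted p = 0.000545), from 3.29 to 5.27 on the standard diet to 1.49 to 2.26 on the MCD diet. Col14a1 (-1.22 ± 0.33, adjusted p = 0.0159), Sparc (-0.80 ± 0.22, adjusted p = 0.0188), Lama2 (-0.92 ± 0.30, adjusted p = 0.0414) and Col1a2 (-1.27 ± 0.41, adjusted p = 0.0425) were the others. The second probe of Col14a1 changed by -0.41. Only Col3a1 kept its call without each of the 8 arrays in turn. Col1a2 and Lama2 lost theirs with normexp, and these and Sparc with only the arrays compared.

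The calls of this comparison changed without both livers that stand apart: 5 members rose and 2 fell, against 6.02% and 8.23% of all genes. Those livers were picked after their high values for these genes were seen. Leaving out liver 1 lowers the standard-diet side for the genes that are high in it, and the adjusted p-values do not allow for that choice. Mmp12 then passed (adjusted p = 0.00125), at least 6.37-fold higher. None of the 3 remaining standard-diet arrays was well above background for it, so each entered at the higher of its own signal and the faintest signal well above background on that array; here its own was the higher. Timp1 rose by 2.33 ± 0.50 (adjusted p = 0.00187), Ctgf by 1.57 ± 0.30 (adjusted p = 0.000686), Mmp9 by 1.47 ± 0.47 (adjusted p = 0.0354) and Col4a1 by 1.00 ± 0.29 (adjusted p = 0.0192). Col3a1 fell by 1.66 (SE 0.30, adjusted p = 0.000293) and Col14a1 by 1.18 (SE 0.37, adjusted p = 0.0297). With all livers Timp1 had been at 1.17 ± 0.89 (adjusted p = 0.438) and Mmp12 at 1.74 ± 0.86 (adjusted p = 0.201). Timp1 stood at 1.39, 0.69, 0.14 and 0.21 on the MCD diet, above 3 of the 4 standard-diet livers and below liver 1. Neutrophil markers rose in 5 of 7, with a summed level of 133 to 316 against 94.8 to 113, and portal fibroblast markers fell in 2 of 5. All-gene calls were 1201 higher and 1301 lower, and 1365 and 834 under median scaling.

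Under the agonist after hepatectomy 1 member fell with the MCD diet, Mfap4 (-1.36 ± 0.36, adjusted p = 0.0163), and none rose, against 3.93% and 4.32% of all genes. Mfap4, a microfibril protein, stood at -2.43, -2.21, -2.71 and -2.26 against -1.12, -1.44, -1.43 and -0.19. Without both livers it was at -1.08 ± 0.37 (adjusted p = 0.0634) and 4 members rose, against 4.91% and 5.69% of all genes: Mmp12 (at least 5.58-fold higher by the same rule, adjusted p = 0.0015), Col4a2 (0.93 ± 0.25, adjusted p = 0.014), Col4a1 (1.03 ± 0.29, adjusted p = 0.0215) and Timp1 (1.75 ± 0.50, adjusted p = 0.022). Here too the livers left out were picked after their high values were seen, and the adjusted p-values without them do not allow for that choice. The all-gene split with all livers was 939 higher to 854 lower, and 912 to 557 under median scaling.

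The agonist itself was not seen to move any member after hepatectomy. On the standard diet none of 39 rose or fell by limma, against 0.0092% and 0% of all genes, and 1 member had an unadjusted p under 0.05. On the MCD diet none rose or fell, against 0.184% and 0.221%, again with 1 member at an unadjusted p under 0.05, and the lowest adjusted p of a member was 0.336. Timp1 stood at -1.01, -1.03, -0.58 and -0.71 with the agonist, below all 4 livers without it, at a change of -1.44 ± 0.89 (adjusted p = 0.498). All-gene calls on the MCD diet were 40 higher and 48 lower, and 25 and 54 under median scaling. The interaction after hepatectomy passed in no member, against 0% of all genes positive and 0.0046% negative, with 3 members at an unadjusted p under 0.05. Without both livers that stand apart, the counts for the agonist on the standard diet and for the interaction were again 0. With 4 livers per group, a difference that misses the threshold here is not shown to be absent.

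The 4 members too dim to test were Col5a2, Col15a1, Lox and Tnc. Col15a1 was well above background on 3 of 4 arrays of the standard diet after hepatectomy and on at most 1 elsewhere. Tnc, a matricellular protein of wounds, stood at 3.28 in liver 1 of the standard diet with agonist after hepatectomy and at -6.63 to -5.39 in the other 3 livers. Lox reached the background limit on 2 arrays of the standard diet after hepatectomy.

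Genes that act on the matrix without belonging to the set were counted in 5 lists. For the diet at baseline without agonist, collagen synthesis and processing had 5 higher and 3 lower of 18 tested. Pcolce, which speeds the trimming of procollagen, rose by 1.02 ± 0.26 (adjusted p = 0.00446), and Plod3, a lysyl hydroxylase, fell by 1.10 (SE 0.23, adjusted p = 0.00108). Other proteases and their control had 3 higher and 3 lower of 19, with the macrophage protease Ctss up by 2.59 ± 0.54 (adjusted p = 0.00101). Matrix receptors had 2 and 1 of 20, TGF-beta and YAP signalling 4 and 2 of 24, and other matrix proteins 6 and 6 of 33, among them Smoc2 at 3.05 and Col27a1 at -2.54. Each of these lists had calls in both directions, against 10.7% of all genes that rose and 15.3% that fell.

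In the interaction at baseline Pcolce was at -2.35 ± 0.36 (adjusted p = 0.000347), its relative Pcolce2 at -3.33 ± 0.68 (adjusted p = 0.00292), P4ha1, a collagen prolyl hydroxylase, at -2.63 ± 0.62 (adjusted p = 0.00745) and the procollagen protease Adamts2 at -2.26 ± 0.53 (adjusted p = 0.00768). That list gave 1 positive and 4 negative of 18, against 6.16% and 4.93% of all genes. Ctss was at -3.83 ± 0.77 (adjusted p = 0.00255), and the receptors Itga9 and Cd44 were at -1.62 and -1.83. After hepatectomy on the standard diet Loxl4, a crosslinking enzyme, rose by 2.98 ± 0.48 (adjusted p = 0.000273), Fbln2 by 1.56, Pcolce2 by 2.25 and Tgfb2 by 2.05. After hepatectomy the MCD diet went with lower Serpinh1, the collagen chaperone (-1.55 ± 0.37, adjusted p = 0.00611), and lower Loxl4 (-2.78 ± 0.48, adjusted p = 0.00029).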

How the data were processed

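Each of 32 livers gave 1 Agilent 1-colour array. Per the file headers, Feature Extraction 10.7.3.1 made the processed signal, a background-corrected spot intensity on a linear scale, from the Cy3 scan. The deposited table of the series holds log2 values by the authors; limma is named in the submitters' processing notes, and table medians were 6.53 to 6.55 at baseline and 7.05 to 7.06 after hepatectomy. The table's centring is not given in the sources used here, and 16 of its 32 labels could not be reconciled with the arrays, so it served only as an alternative.

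Control spots (3671 of 62976) and 5010 spots flagged as outliers (0.264%) were left out. The log2 signal had the array's 75th percentile subtracted. Probes had to be well above background on all 4 arrays of 1 or more groups (30159 of 55681 probes), and the brightest such probe stood for each gene. Group means of the 8 groups were fitted with limma 3.58.1 in R 4.3.3 (lmFit, eBayes), with Benjamini-Hochberg adjustment over 21749 genes at 0.05. P-values measure the spread between livers, whose number limits the precision. Fold changes set 1 probe against itself, never against another probe. Probe exons and UTRs were not looked up. The fit was checked on simulated data.

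The members, lists and tests were chosen with earlier results of these data known. Any member that passed was named, and of the others 12 fixed genes (Col1a1, Col3a1, Col4a1, Fn1, Sparc, Timp1, Mmp2, Mmp12, Mmp13, Ctgf, Thbs1 and Loxl1), with members too dim to test and values for members that an added setting called; up to 4 genes with the smallest adjusted p came from each further list. Same-numbered livers deviated together (r over 0.1) in 11 of 48 pairs, so numbers do not pair livers. A slide term could not be fitted beside the groups. Alternatives were normexp background correction with an offset of 50, median scaling, quantile normalization, no dim filter, the mean over probes, kept outlier spots, only the arrays compared, the deposited table, a replicate block, each array left out and, chosen after seeing the data, both livers that stand apart left out.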

Additional observations from a re-analysis of the deposited data

Results flagged for a closer look

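In groups of 4 livers, the highest or lowest liver was called far from the others when its gap to the nearest, as a share of the group's range, exceeded Dixon's 95% critical value. This held for 29 of 343 member-and-group pairs checked, and chance alone flags about 1 in 20. Liver 4 of the standard diet with agonist after hepatectomy was high for 8 members: Col4a1 at 2.79, Lum at 2.64, Fbn1 at -0.59, Lox at -3.02, Mmp12 at -0.81, Thbs1 at 0.06, Thbs2 at -2.25 and Ctgf at 3.63. The same group's liver 1 was high for Tnc alone, at 3.28 against -6.63 to -5.39 in the other 3. On the standard diet after hepatectomy liver 4 was high for Col18a1 (6.90) and liver 3 low for Timp2 (2.38).

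On the MCD diet with agonist after hepatectomy, liver 1 was low for Col4a1 (1.77), Col18a1 (6.30) and Bgn (-1.02), liver 3 high for Col6a3 (1.66) and Mmp12 (-1.91), liver 4 low for Timp3 (1.24) and liver 2 low for Lama2 (-1.16). On the MCD diet after hepatectomy, liver 2 was high for Col6a3 (0.69) and liver 1 for Lamb1 (2.55).

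At baseline, the standard diet had liver 2 high for Lamb1 (1.86) and Mfap4 (0.08) and liver 3 high for Col4a1 (0.83). With the agonist, its liver 1 was low for Col6a1 (0.79) and its liver 3 low for Mmp23 (-2.21). The MCD diet had liver 1 high for Thbs2 (-2.26) and liver 4 high for Tnc (-3.66), and with the agonist liver 3 was low for Col4a1 (0.06) and liver 2 low for Mfap4 (-3.23).

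The diet change at baseline differed with the agonist, by limma's interaction test, in 4 members: Col3a1 (-2.24), Dcn (-1.84), Thbs1 (-3.55) and Mmp14 (1.34).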

How the results depend on the processing

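Counts below are members called, for the diet (MCD against standard), the agonist or hepatectomy. Quantile normalization and kept outlier spots left all 14 counts within 1.5 times those reported. A similar count can hide other members, though. Under quantile normalization the 1 call for the agonist on the standard diet at baseline was Fn1 and not Sparc. Mmp14 lost its call there for the interaction at baseline, and Efemp1 for the agonist on the MCD diet. With normexp background correction they were 11 for the diet at baseline (9 rose, 2 fell), 1 for it under the agonist, 2 for the agonist on the standard diet at baseline, 2 for the diet after hepatectomy under the agonist, 11 for hepatectomy on the standard diet and 1 on the MCD diet. Median scaling gave 16 for the interaction at baseline, 13 for the agonist on the MCD diet at baseline, 2 for it on the standard diet and 2 for the diet after hepatectomy. With no dim filter there were 1 for the diet at baseline under the agonist, 0 for the agonist on the standard diet and 3 for the diet after hepatectomy. The mean over probes gave 0 for the agonist on the standard diet at baseline and 3 for hepatectomy on that diet under the agonist. Only the arrays compared gave 7 for the interaction at baseline, 0 for the agonist on the standard diet, 2 for the diet after hepatectomy, 4 for hepatectomy on the standard diet and 8 on the MCD diet (3 rose, 5 fell). The cause of these moves was not tested.

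The deposited table, whose labels are exchanged for 16 columns, gave 3 for the diet at baseline and 13 for the agonist on the standard diet, 8 for the diet under the agonist and 2 for the agonist on the MCD diet; after hepatectomy it gave 0 and 0 for the diet, 6 for the agonist on the standard diet and 1 on the MCD diet. It reversed Lum for the diet (-0.12, adjusted p = 0.807) and Dcn for the agonist on the MCD diet (0.10, adjusted p = 0.914). Without both livers that stand apart, chosen after seeing the data, there were 4 for the diet after hepatectomy under the agonist, 10 for hepatectomy on the standard diet and 3 under the agonist. With the replicate number as a block, the numbers not pairing the livers, 17 members were called for the diet at baseline, Loxl2 being lost (1.18, adjusted p = 0.056); 66 of 67 member calls held.

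Leaving out 1 array at a time gave 8 to 14 calls for the diet at baseline and 0 to 2 under the agonist, 3 to 7 for the interaction, 0 to 2 for the agonist on the standard diet and 2 to 5 on the MCD diet. After hepatectomy it gave 1 to 7 for the diet, 0 to 2 under the agonist, and 0 to 0 for the agonist on either diet and the interaction. Hepatectomy gave 8 to 19 on the standard diet, 2 to 8 under the agonist, 1 to 3 on the MCD diet and 2 to 8 under the agonist. Signal over background limits Mmp9, Mmp12, Mmp13 and the 4 untested members most. It also touches Thbs1, well above background on 27 arrays, Fbn1 and Thbs2 (28 each), Eln (29) and Timp1 (30).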
